A study of Mus musculus with 10 samples.

Results

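Loops near 7 genes of myeloid C-type lectin receptors on mouse chromosome 6 were described across a macrophage priming model. The genes were Clec4a1, Clec4a3, Clec4a2, Clec4n, Clec4d and Clec4e, which lie side by side, and Clec7a, which lies farther along the same chromosome. Loops were chosen by position alone: a loop was taken when 1 of its anchor bins overlapped the 100 kb on either side of a transcription start site (TSS) in GENCODE M21 (GRCm38). This gave 355 of the 301424 loops summed over 5 loop lists, or 182 of 153264 distinct bin pairs, near 7 of the 21729 genes examined. All 7 genes passed the filter of at least 10 loops over the lists, as did 14592 genes in all.

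C-type lectin receptors are surface proteins by which macrophages and dendritic cells recognise sugars and lipids of fungi, mycobacteria and dying cells. Dectin-1 (Clec7a), Dectin-2 (Clec4n), Mincle (Clec4e) and MCL (Clec4d) activate the kinase Syk, either directly or through the Fc receptor gamma chain, and from there the adaptor Card9 and NF-kappaB. The DCIR family (Clec4a genes) holds inhibitory receptors, some of which recruit phosphatases. The genes of both groups lie in clusters that grew by gene duplication, so neighbouring copies resemble each other in sequence.

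Hi-C, which ligates and sequences DNA segments that are close in the nucleus, had been run on bone marrow-derived macrophages (MFs) of wild type female C57BL/6 mice aged 2 to 3 months, grown in M-CSF at 20 ng/ml and treated on day 6. There were 10 samples in 5 groups of 2 replicates. M0[CTR] cells had no further cytokine. For M2[IL-4], IL-4 was added to 20 ng/ml for 24 h. M2p[pIL-4] cells received the same, were washed and then rested for 24 h. IFNG cells received IFNG at 20 ng/ml for 3 h, and pIL-4 + IFNG cells received it after IL-4, washing and rest. Each group was represented by 1 list, which leaves every difference without a check over replicates and allowed no test across conditions. Intervals are 95% intervals that cover counting error alone. Contacts were summed over a cell population, so a contact made in more cells and a contact made more often per cell cannot be told apart.

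The lists held 53424 (M0[CTR]), 58260 (M2[IL-4]), 67728 (M2p[pIL-4]), 55012 (IFNG) and 67000 (pIL-4 + IFNG) loops, and ratios of loop number were scaled to these lengths. A loop was a pair of 10 kb bins with a whole-number count of contacts of at least 5. A bin pair that was not in a list had no value there, which is not a count of 0. At the 14063 bin pairs present in all 5 lists, summed contacts relative to M0[CTR] were between 0.998 and 1.04, so contacts were compared without scaling.

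Some of the bins described below held matches to the CTCF consensus, the DNA motif of the protein at which many chromatin loops end. Those of 4 bins are shown, 1 pair of bins at each locus that was joined in all 5 lists, and the bins were chosen for holding a match. Other anchors held 0 matches, among them the bin with the most loops near Clec7a, in Clec1b (chr6:129390001-129400000; 33 loops summed over the lists), and 2 leading bins of the cluster, chr6:122900001-122910000 (29 loops) and a Clec4a4 bin (chr6:123000001-123010000; 23 loops). The search used a 14-letter consensus on both strands with at most 1 mismatch, and 21.4% of the 10 kb bins of the autosomes and X held at least 1 match, so a match is a description of the bin and not of a bound site. Capitals mark the 14 matched letters, and each sequence runs 5′ to 3′ on the strand named (GRCm38).
Bin before Clec4a1, chr6:122892622-122892641, plus strand: tgaCCACTAGAGGGGGCcat
Clec4b2 bin, chr6:123185054-123185073, minus strand: gctCCAGTAGATGGCTCcac
Clec12b bin, chr6:129389261-129389280, minus strand: taaCCAGGAGGGGGCAGcat
Tmem52b bin, chr6:129518206-129518225, minus strand: gttCCACTAGGTGGCAGcaa
The Tmem52b match had 0 mismatches and the others had 1 each. The 20 letters printed for the Clec4b2 bin occurred again, on the same strand, at chr6:123249051-123249070, just beyond the end of Clec4n, an example of the repeated sequence in this cluster.

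The 6 Clec4 genes lay within 1 joint window of 568 kb (chr6:122821848-123389870), and their single windows overlapped, so their loop numbers share loops and are not independent. The joint window held 49 loops (M0[CTR]), 41 (M2[IL-4]), 61 (M2p[pIL-4]), 36 (IFNG) and 41 (pIL-4 + IFNG). The Clec7a window (chr6:129372779-129572779) held 21, 21, 27, 26 and 32 loops in the same order. By number, the cluster had the most loops in M2p[pIL-4] and the fewest in IFNG, whereas Clec7a had the most in pIL-4 + IFNG. Per 10000 loops of the list, the cluster had 9.17 (M0[CTR]), 7.04 (M2[IL-4]), 9.01 (M2p[pIL-4]), 6.54 (IFNG) and 6.12 (pIL-4 + IFNG), so that both IFNG lists were lowest. Clec7a had 3.93, 3.60, 3.99, 4.73 and 4.78. At the edges of the windows, the first bin inside the Clec4 window, in Foxj2, held 1, 2, 1, 4 and 2 loops, and the first bin outside it held 2, 1, 2, 2 and 2. The last bin inside the Clec7a window, in Klre1, held 1, 1, 3, 1 and 4 loops, against 1, 0, 1, 2 and 3 in the bin just outside. Its left edge fell among more loops. The first bin inside, in Clec12b, held 3, 2, 3, 5 and 6, and the bin just outside, in Clec12a, held 4, 2, 2, 4 and 5.

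**Figure D1:**
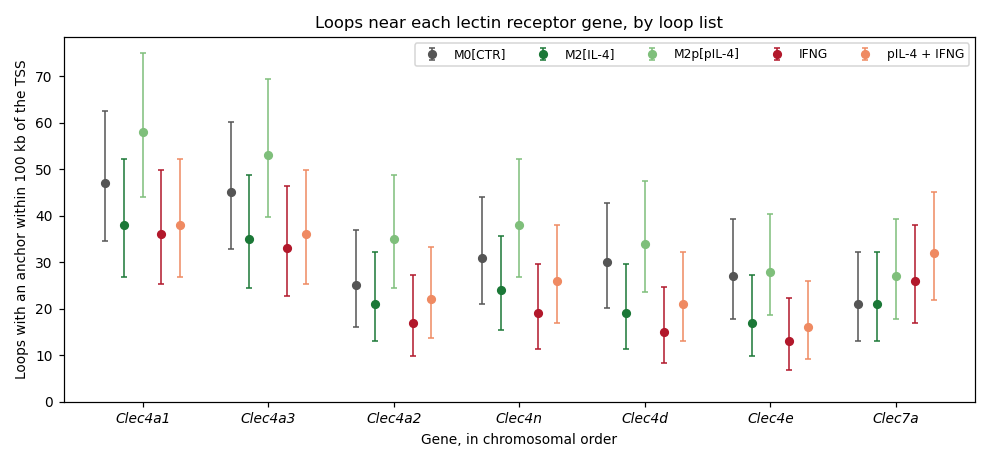
Loops with an anchor within 100 kb of the TSS of each gene (y axis, number of loops) for the 7 genes in chromosomal order (x axis), with 1 point per loop list and bars for the exact 95% Poisson interval. All 6 Clec4 genes are highest in M2p[pIL-4] and lowest in IFNG, and Clec7a runs from 21 to 32 loops.

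By gene, loop number was highest at the Clec4a1 end of the cluster. Clec4a1, whose TSS lies at chr6:122921848 on the plus strand and which codes for a DCIR family receptor, had 47 loops (M0[CTR]), 38 (M2[IL-4]), 58 (M2p[pIL-4]), 36 (IFNG) and 38 (pIL-4 + IFNG). Clec4a3, a second DCIR gene (TSS chr6:122952515, plus strand), had 45, 35, 53, 33 and 36. These are the loop-rich genes of the set: in M0[CTR], 88.2% of the genes tested had fewer loops than Clec4a1, and 87.0% had fewer than Clec4a3. In the other lists these shares ran from 73.2% (pIL-4 + IFNG) to 88.6% (M2p[pIL-4]) for Clec4a1. For Clec4a3 they ran from 71.2% to 85.6% in the same 2 lists.

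Clec4a2, the gene of the inhibitory receptor DCIR itself (TSS chr6:123106428, plus strand), had 25, 21, 35, 17 and 22 loops. Clec4n, the gene of Dectin-2, which binds fungal mannans (TSS chr6:123229843, plus strand), had 31, 24, 38, 19 and 26. Both sat in the middle of the cluster and had fewer loops than Clec4a1 in every list.

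Clec4d, the gene of MCL, a partner of Mincle (TSS chr6:123262111, plus strand), had 30 loops (M0[CTR]), 19 (M2[IL-4]), 34 (M2p[pIL-4]), 15 (IFNG) and 21 (pIL-4 + IFNG). Clec4e, the gene of Mincle, the receptor for a mycobacterial glycolipid (TSS chr6:123289870, minus strand), had 27, 17, 28, 13 and 16. Clec7a, the gene of the beta-glucan receptor Dectin-1 (TSS chr6:129472779, minus strand, annotated in GENCODE M21 as a polymorphic pseudogene), had 21, 21, 27, 26 and 32. In M0[CTR] the order of loop number was Clec4a1, Clec4a3, Clec4n, Clec4d, Clec4e, Clec4a2 and Clec7a, and the counting intervals of all neighbours in this order overlapped.

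With IL-4 present, all 6 Clec4 genes had fewer loops for the length of the list than in M0[CTR]. Their log2 ratios of M2[IL-4] over M0[CTR] ran from -0.76 for Clec4e to -0.37 for Clec4a2 with a median of -0.48, beside a median of -0.03 over all genes. The direction depended on how loops were counted: for the cluster as a whole the log2 ratio was -0.38, but 0.17 with touching bin pairs merged and 0.29 with anchors in the TSS bins alone. It also turned for Clec4a3 with a window of 25 kb (0.68) and for Clec4a2 with 50 kb (0.36). The value for Clec7a was -0.13 (95% interval -1.07 to 0.82). None of the 7 genes passed 2-fold, whereas 8.74% of all genes did. The intervals of all 7 ratios included 0.

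After washout the loop numbers of the Clec4 genes, scaled to list length, were near those of M0[CTR] with windows of 100 kb. This depended on the scaling, since the M2p[pIL-4] list held 67728 loops against 53424. Unscaled, each of the 6 genes had more loops in M2p[pIL-4], and the cluster had 61 against 49. For M2p[pIL-4] over M0[CTR] the 6 log2 ratios ran from -0.29 for Clec4e to 0.13 for Clec4a2, with a median of -0.08, and Clec7a was at 0.01 (interval -0.86 to 0.92). The ratio for the whole cluster was -0.03, but 0.53 with touching pairs merged (30 loops against 17) and 0.77 with TSS bins alone, and Clec4a3 was at 1.47 with a window of 25 kb. For M2p[pIL-4] over M2[IL-4] all 6 were above 0, from 0.37 for Clec4a3 to 0.59 for Clec4d, with a median of 0.45, and Clec7a was at 0.13. None of the 7 genes passed 2-fold in either comparison, beside 6.03% of all genes against M0[CTR] and 6.59% against M2[IL-4]. The 3 comparisons made without IFNG use 3 lists in all, so a high or low list appears in more than 1 of them.

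IFNG gave the one ratio beyond 2-fold. Without priming, 1 of 7 genes, Clec4e, was past 2-fold lower in IFNG than in M0[CTR], with 13 loops against 27 (log2 ratio -1.04, interval -2.17 to -0.09), beside 3.89% of all genes past 2-fold lower and 8.83% past it either way. Clec4d lay just inside that line, with 15 loops against 30 (log2 ratio -0.996, interval -2.04 to -0.10). Mincle and MCL are neighbours whose windows share most of their loops, so these are not separate observations. The other Clec4 genes had log2 ratios between -0.72 for Clec4n and -0.42 for Clec4a1, and the median of the 6 was -0.65, beside -0.04 over all genes. The Clec4e value was not past 2-fold without scaling to list length, at equal list lengths, with a window of 50 kb (-0.92), with touching bin pairs merged (-0.69), at 20 or more contacts (-0.50) or with a pseudocount of 5 (-0.87). This comparison shares its M0[CTR] list with those above.

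After priming the Clec4 genes were again lower with IFNG. For pIL-4 + IFNG over M2p[pIL-4] the log2 ratios ran from -0.75 for Clec4e to -0.51 for Clec4n, with a median of -0.61 (0.02 over all genes), and none of the 7 genes passed 2-fold, beside 5.84% of all genes. Clec7a was higher by number of loops in both IFNG comparisons, at 0.25 (interval -0.62 to 1.17) without priming and 0.25 (interval -0.52 to 1.06) after it. Loops with both anchors in its window numbered 21 in IFNG against 19 in M0[CTR], and 26 in pIL-4 + IFNG against 23 in M2p[pIL-4]. Those with 1 anchor outside numbered 5 against 2, and 6 against 4. The 2 IFNG lists themselves differed little at these genes with windows of 100 kb. For pIL-4 + IFNG over IFNG the 6 Clec4 values ran from -0.21 to 0.18 and Clec7a was at 0.01. None was past 2-fold, beside 5.43% of all genes. With TSS bins alone, however, the ratio for the whole cluster was 1.52, on few loops. With touching bin pairs merged the cluster had 21 loops in pIL-4 + IFNG against 15 in IFNG. Whether the Clec4 cluster and Clec7a differ in their response to IFNG was not tested, since each group had 1 list.

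**Figure D2:**
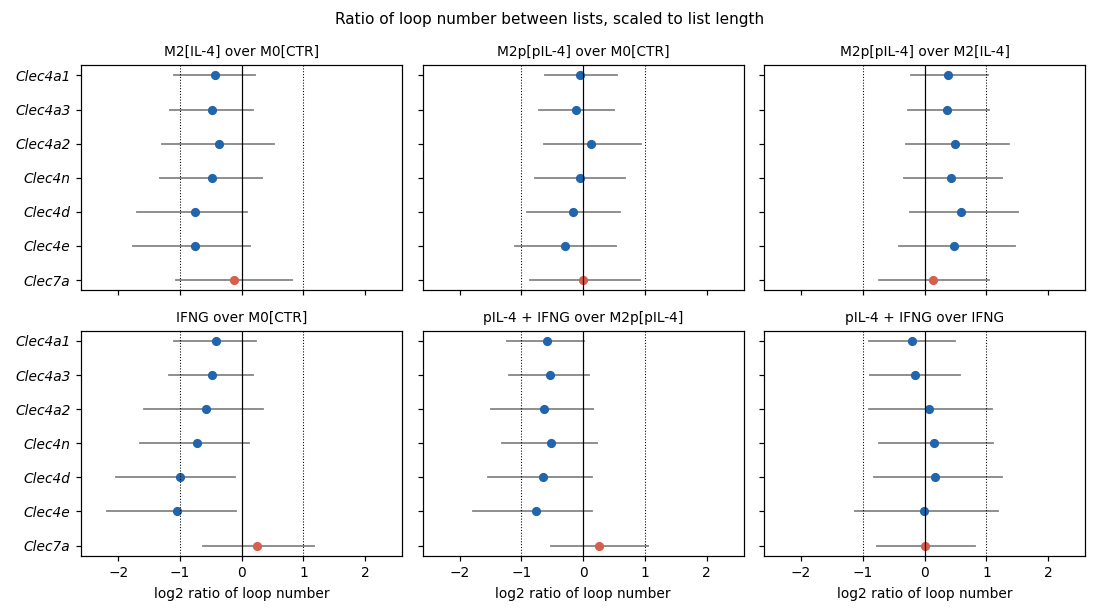
Log2 ratio of loop number between 2 lists, scaled to list length with a pseudocount of 1 (x axis), for each gene (y axis) in the 6 comparisons, with points for the ratio, lines for the 95% counting interval and dotted lines at 2-fold. The 6 Clec4 genes (blue) lie left of 0 in M2[IL-4] over M0[CTR] and in both IFNG over no IFNG panels, and Clec7a (red) lies at 0.25 in the latter.

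Most loops of the cluster ran between its left edge and its interior, and 1 bin stood out. The bin chr6:122890001-122900000, which holds no annotated gene and lies between Necap1 and Clec4a1, was an anchor of 15 loops (M0[CTR]), 13 (M2[IL-4]), 16 (M2p[pIL-4]), 17 (IFNG) and 14 (pIL-4 + IFNG). These made up 30.6%, 31.7%, 26.2%, 47.2% and 34.1% of the loops of the cluster. So while the cluster had the fewest loops in IFNG, the number at this bin was not lower there. This bin was singled out after its values had been seen, as the one with the most loops.

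Its partners lay 40 to 380 kb away. Of its pairs present in all 5 lists, the one with the most contacts joined it to a bin of Clec4a4 (chr6:123000001-123010000), the gene of the receptor DCIR2, with 72 contacts (M0[CTR]), 75 (M2[IL-4]), 75 (M2p[pIL-4]), 58 (IFNG) and 79 (pIL-4 + IFNG). A bin of Clec4b2, a gene of the DCAR group of receptors (chr6:123180001-123190000), had 47, 41, 46, 52 and 40 contacts with it, and a second Clec4a4 bin (chr6:123010001-123020000) had 36, 38, 47, 42 and 45. The Clec4b2 bin and the left anchor hold the CTCF matches printed above, the left one on the plus strand and the right one on the minus strand. For its span of 290 kb the pair with Clec4b2 was the strongest in 3 lists, at 2.04 (M0[CTR]), 2.00 (M2p[pIL-4]) and 2.26 (IFNG) times the median contacts of loops of that span. In M2[IL-4] and pIL-4 + IFNG the strongest was the pair with the first Clec4a4 bin, at 1.92 and 2.08 times.

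For these 2 pairs, the ratios of contacts in all 6 comparisons had intervals that included 1. The 8 bin pairs of the cluster present in all 5 lists, which all start in the left anchor or in a bin next to it and end in Clec4a4 or Clec4b2, summed to 313, 291, 312, 291 and 290 contacts. Relative to M0[CTR] the sums were 0.930 (interval 0.790 to 1.09), 0.997, 0.930 and 0.927 (interval 0.787 to 1.09).

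**Figure D3:**
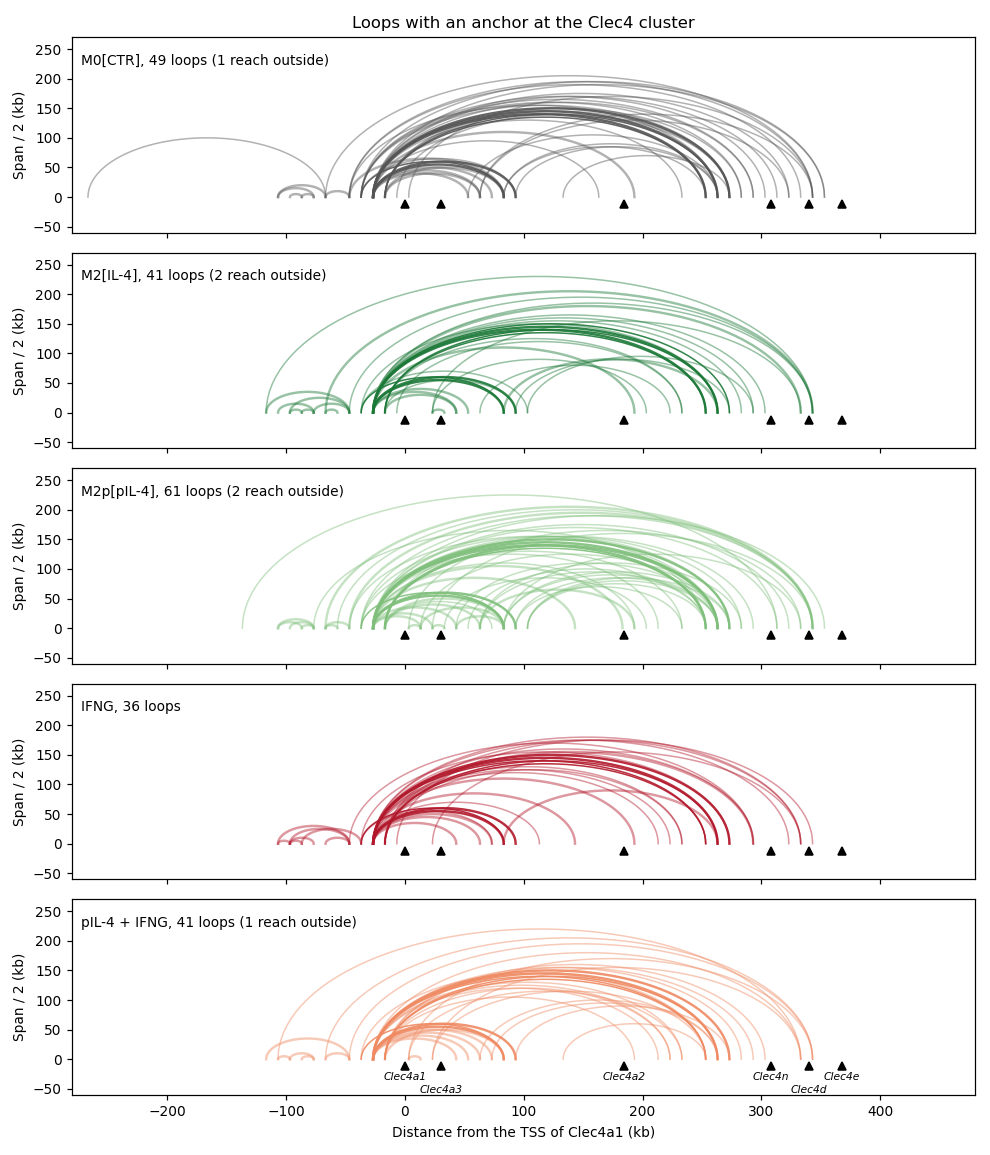
Loops with an anchor at the Clec4 cluster in each list, drawn as arcs over the distance from the TSS of Clec4a1 in kb (x axis); the y axis is the span divided by 2, in kb, darker arcs are bin pairs present in all 5 lists, thicker arcs have at least 30 contacts, triangles mark TSSs, and loops that reach outside the range are counted but not drawn. The darker arcs leave from the left of Clec4a1 in every list, and no arc ends at the TSS of Clec4e.

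Of the TSS bins of the Clec4 genes, that of Clec4d had the most loops. The bin of the Clec4d TSS (chr6:123260001-123270000) was an anchor of 4, 5, 7, 1 and 3 loops, in the order M0[CTR], M2[IL-4], M2p[pIL-4], IFNG and pIL-4 + IFNG, and of 13 distinct bin pairs. Those of Clec4a1, Clec4n, Clec4a3 and Clec4a2 were in 4, 3, 2 and 1 distinct pairs. For Clec4a2, RefSeq places the start 16262 bases from the GENCODE one used here, in a bin with 3 distinct pairs (chr6:123120001-123130000). The bin of the Clec4e TSS (chr6:123280001-123290000) had 0 loops in all 5 lists. All loops counted near Clec4e therefore end in other bins of the cluster, the nearest anchor being a Clec4d bin 9.87 kb from its TSS. No anchor lay in the 11 bins from the Clec4e TSS bin to the end of the window.

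Among the loops of the Clec4d TSS bin, 2 were called in 4 lists and absent from the IFNG list. The loop with C3ar1, the gene of the complement C3a receptor (chr6:122850001-122860000), had 22 (M0[CTR]), 33 (M2[IL-4]), 30 (M2p[pIL-4]) and 19 (pIL-4 + IFNG) contacts. That with Necap1, the gene of a clathrin-associated protein (chr6:122870001-122880000), had 28, 20, 32 and 21. Within 25 kb the Necap1 loop had a match in the IFNG list and the C3ar1 loop had none. In IFNG the only loop of this bin was with chr6:122910001-122920000, just before Clec4a1, with 16 contacts. In M2p[pIL-4] relative to M2[IL-4] the Necap1 contacts were 1.60 times as many, with an interval (0.887 to 2.95) that includes 1.

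A few loops left the cluster over long distances. There were 6 of 1000 to 1200 kb, with 8 to 13 contacts, and their far anchors lay between chr6:124260001 and chr6:124360000. Of these, 3 ended in 1 bin of Cd163, the gene of the haemoglobin scavenger receptor of macrophages (chr6:124320001-124330000), from Clec4a2 in M2[IL-4] with 8 contacts, from Clec4d in M2[IL-4] with 12 and from the next Clec4d bin in pIL-4 + IFNG with 13. The lists of M2[IL-4] and M2p[pIL-4] had 2 each, M0[CTR] and pIL-4 + IFNG had 1 each, and IFNG had 0.

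Clec7a lay inside a compact block. Its TSS bin (chr6:129470001-129480000) was an anchor of 3 loops (M0[CTR]), 1 (M2[IL-4]), 5 (M2p[pIL-4]), 3 (IFNG) and 6 (pIL-4 + IFNG). Of its 8 distinct pairs, 7 ran to the left, to the genes of the lectin receptors Clec12b, Clec1b, Clec9a and Clec1a. The one present in all lists joined it to a bin of Clec1b (chr6:129390001-129400000), the gene of the podoplanin receptor CLEC-2, with 43, 52, 32, 46 and 34 contacts. In M2p[pIL-4] this was 0.615 times the M2[IL-4] value (interval 0.383 to 0.974), beside 1.1% of bin pairs past 1.5-fold lower. It was 1 of 2 pair ratios near either locus with an interval that did not include 1. Each of the 6 comparisons held 13 to 24 such ratios at each locus. The share of intervals without 1 over all bin pairs was not computed.

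More widely, 4 bins over Clec12b and Clec1b (chr6:129370001-129410000) looped with 8 bins from Clec7a over Olr1, the gene of the oxidised LDL receptor LOX-1, and Tmem52b to the start of Gabarapl1, an autophagy gene (chr6:129460001-129540000). Of the 32 possible pairs, 16, 16, 19, 19 and 20 were called, in the same order of lists. They were 76.2%, 76.2%, 70.4%, 73.1% and 62.5% of the loops near Clec7a. The strongest for its span in every list joined Clec12b (chr6:129380001-129390000) with the bin after Tmem52b (chr6:129520001-129530000), with 50, 46, 50, 64 and 61 contacts. These blocks were drawn after the loops had been seen. Other loops left the window. The Klre1 bin at its right edge (chr6:129570001-129580000) was in 10 distinct pairs, the most of any bin in the window. Each was called in 1 list alone, with a partner outside the window, 250 to 1100 kb away.

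**Figure D4:**
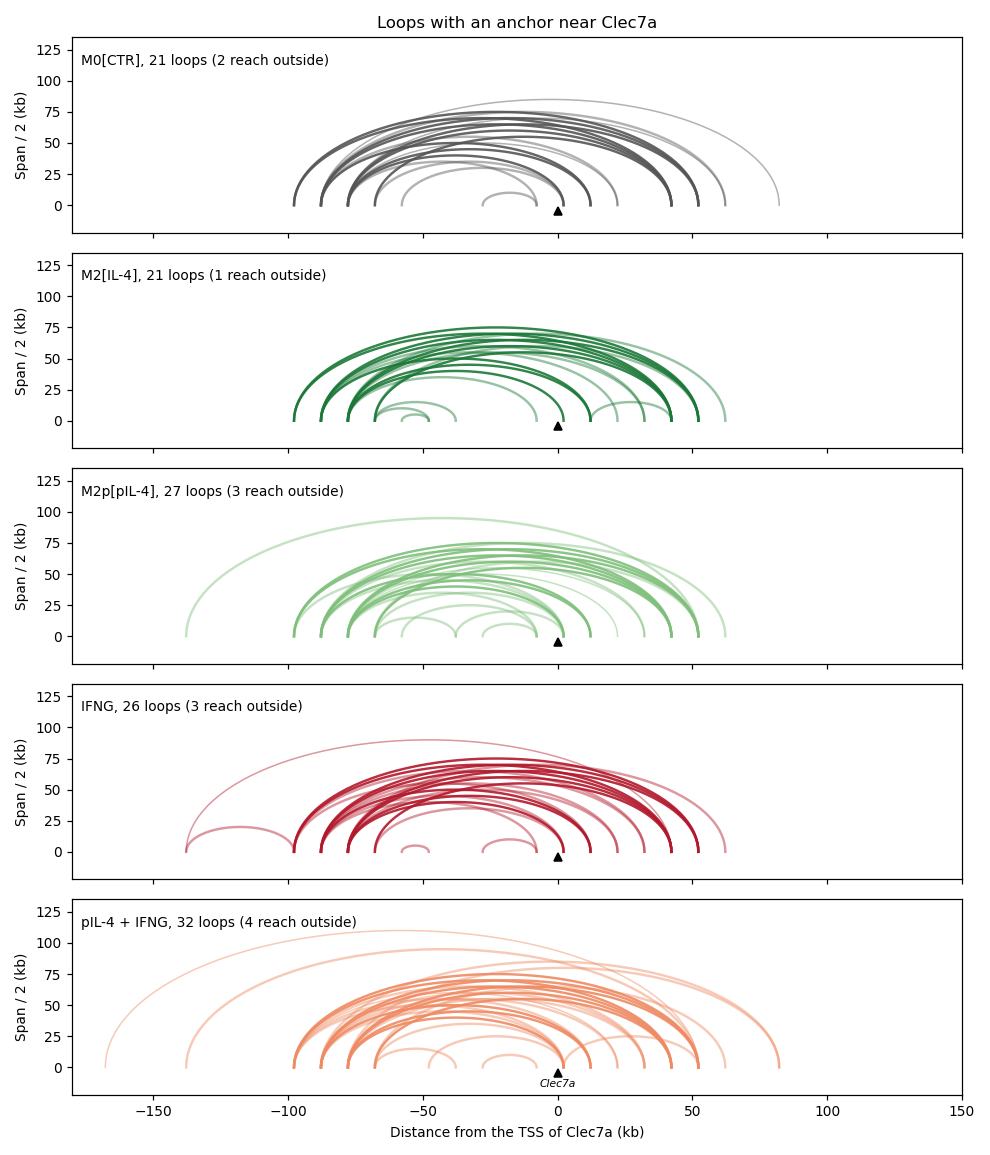
Loops with an anchor near Clec7a in each list, drawn as arcs over the distance from the TSS of Clec7a in kb (x axis); the y axis is the span divided by 2, in kb, darker arcs are bin pairs present in all 5 lists, thicker arcs have at least 30 contacts, the triangle marks the TSS, and loops that reach outside the range are counted but not drawn. Arcs from about 70 to 100 kb on the left to bins at and right of the TSS recur in every list, with 16 to 20 of them in the block described.

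The bins with the 2 CTCF matches printed for this locus, Clec12b and Tmem52b, were joined in all 5 lists, with 35, 40, 48, 56 and 47 contacts. IFNG had 1.60 times the M0[CTR] contacts here (interval 1.03 to 2.52), beside 2.37% of bin pairs past 1.5-fold higher. The 10 pairs near Clec7a present in all lists summed to 415, 412, 406, 444 and 444 contacts, 1.07 times M0[CTR] in both IFNG lists (interval 0.934 to 1.23). Both matches lay on the minus strand. The Olr1 bin chr6:129500001-129510000 held 3 further matches, 1 on the plus and 2 on the minus strand, and the Olr1 bin chr6:129480001-129490000 held 1 on the plus strand.

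Over all bin pairs called in both lists of a comparison, contacts moved little at either locus. Pairs missing from a list had no ratio, so contacts gained or lost together with a call are not covered. Summed contact ratios ran from 0.925 to 1.08, and every interval included 1. Past 1.5-fold were 0 of 17 cluster pairs in M2[IL-4] over M0[CTR] (3.27% of all pairs), 0 of 24 in M2p[pIL-4] over M0[CTR] (3.14%) and 1 of 18 in M2p[pIL-4] over M2[IL-4] (3.21%). In IFNG over M0[CTR] there were 0 of 18 (3.37%) and in pIL-4 + IFNG over IFNG 1 of 20 (3.22%). The most, 3 of 19 and all lower, were in pIL-4 + IFNG over M2p[pIL-4], beside 1.82% of all pairs past 1.5-fold lower. These were the C3ar1 and Necap1 loops of the Clec4d TSS bin, at 0.633 (interval 0.337 to 1.16) and 0.656, and the left anchor with Clec4b2 (chr6:123170001-123180000), at 0.632. All 3 intervals included 1. At Clec7a, the comparisons held 0 of 13, 0 of 15, 1 of 15, 1 of 15, 0 of 18 and 1 of 17, in the order M2[IL-4] and M2p[pIL-4] over M0[CTR], M2p[pIL-4] over M2[IL-4], IFNG over M0[CTR], and pIL-4 + IFNG over M2p[pIL-4] and over IFNG (3.23% of all pairs in pIL-4 + IFNG over M2p[pIL-4]).

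Which exact bins were called varied between lists. Of 127 distinct bin pairs at the cluster, 8 (6.30%) were present in all 5 lists and 80 in 1 list alone. At Clec7a 10 of 55 (18.2%) were present in all and 27 in 1 list alone. In the whole series, 9.18% of distinct pairs were in all 5 lists. The series shares of pairs in 1 list alone, and of pairs matched with a shift, were not computed. When a shift of up to 25 kb at both anchors was allowed, 87 of 127 and 32 of 55 had a match in all 5 lists. Of the pairs in a single list, the cluster had 19 (M0[CTR]), 14 (M2[IL-4]), 29 (M2p[pIL-4]), 7 (IFNG) and 11 (pIL-4 + IFNG). These numbers are not scaled to list length, and the M2p[pIL-4] list is the longest (67728 loops, against 55012 in IFNG).

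Allowing that shift, all 36 cluster loops of the IFNG list had a match in M0[CTR] (100%, Wilson interval 90.4 to 100), beside 87.0% of the whole IFNG list. For M2[IL-4], M2p[pIL-4] and pIL-4 + IFNG the shares were 82.9%, 80.3% and 90.2%, beside 86.4%, 85.9% and 84.9%. Near Clec7a, 76.2%, 81.5%, 80.8% and 75.0% of the M2[IL-4], M2p[pIL-4], IFNG and pIL-4 + IFNG loops had a match in M0[CTR]. In the other direction, 42 of the 49 M0[CTR] loops of the cluster (85.7%) had a match in IFNG, near the 88.0% of the whole M0[CTR] list.

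At these loci, few calls followed IL-4 exposure. How often such patterns occur over the whole series was not computed, so these numbers have no background beside them. With the shift allowed, 3 cluster pairs had a match in all 3 IL-4 exposed lists and in neither of the others. They were the adjacent bins of Clec4a1 (chr6:122920001-122940000), with 170 (M2p[pIL-4]) and 172 (pIL-4 + IFNG) contacts, the adjacent bins at Clec4a3 (chr6:122940001-122960000), with 67 in M2[IL-4] and 75 in M2p[pIL-4], and Clec4a4 with chr6:123210001-123220000, with 23 in M2[IL-4]. The first 2 start 20 kb apart and each reaches the third list only through the other, so they are 1 observation. In the same bins, 1 pair at the cluster was in the 3 exposed lists alone, the left anchor with Clec4b2 (chr6:123200001-123210000; 24, 20 and 19 contacts). At Clec7a there were 2, Clec1b with Olr1 (chr6:129500001-129510000; 32, 28 and 33 contacts) and the Clec1b and Clec9a bin with Clec1a (chr6:129430001-129440000; 51, 55 and 64 contacts). Within 25 kb the cluster pair and the first Clec7a pair had matches in all 5 lists and the second Clec7a pair in 4, so none of these 3 was particular to the exposed lists once a shift was allowed. No pair at either locus was in both unexposed lists alone, whether in the same bins or within 25 kb. The exposed lists include the longest ones, and these patterns have no replicate check.

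In both IFNG lists alone, in the same bins, were 3 cluster pairs and 2 near Clec7a. The share of such pairs over the whole series was not computed either. Those of the cluster were adjacent bins at Foxj2 (chr6:122810001-122830000; 157 contacts in each) and the left anchor with 2 bins of Clec4a2, chr6:123130001-123140000 (25 contacts in IFNG and 21 in pIL-4 + IFNG) and chr6:123140001-123150000 (21 in each). At Clec7a both joined Clec12b (chr6:129370001-129380000) with Olr1 bins, with 33 and 37 contacts in one and 32 in each list in the other. Within 25 kb all 5 had matches in every list.

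The 2 loci differed in the sequence of their bins. In the 57 bins of the Clec4 window, a median of 74.6% of 31-base words occurred once in the genome (range 1.98 to 98.3), beside 91.3% in 300 evenly spaced bins of chromosome 6. Reads are longer than these words, so the share is a measure of repeated sequence and not the share of reads that could be placed. A median of 51.4% of these bins was repeat sequence, beside 29.2% in the genome. The 42 bins that were anchors had a median of 76.4% unique words and the 15 without a loop 64.0%. Near Clec7a the median was 93.8%, and repeats made up 23.8%. Sites of MboI, the enzyme that cut the chromatin, were as frequent as elsewhere, with medians of 28 and 25 per bin beside 24 in the genome.

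By gene, the TSS bin held 98.3% unique words at Clec4d, 96.0% at Clec4a1, 92.5% at Clec7a and 90.6% at Clec4e. It held 75.5% at Clec4a2 (90.4% in the bin of its RefSeq start), 57.04% at Clec4n and 55.0% at Clec4a3. The Clec4e TSS bin, with 0 loops, held 19 MboI sites, beside the median of 28 in the cluster. The TSS bin of Clec4a1, with 4 distinct pairs, also held 19, and that of Clec4d, with 13, held 22. The 11 bins from the Clec4e TSS bin to the end of the window had a median of 68.45% unique words (range 1.98 to 93.6). The part of unique sequence and of cutting sites in the loop numbers was not tested, and both are the same in all 5 lists.

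Promoter sequence is shown for the 3 genes on whose TSS bins these results turn: Clec7a, with loops in all lists, Clec4d, with the most loops of the Clec4 start bins, and Clec4e, with none. The 250 bases before the start are from RefSeq (GRCm38.p6) and run 5′ to 3′ on the strand of the gene.
Clec7a promoter, chr6:129472780-129473029, minus strand: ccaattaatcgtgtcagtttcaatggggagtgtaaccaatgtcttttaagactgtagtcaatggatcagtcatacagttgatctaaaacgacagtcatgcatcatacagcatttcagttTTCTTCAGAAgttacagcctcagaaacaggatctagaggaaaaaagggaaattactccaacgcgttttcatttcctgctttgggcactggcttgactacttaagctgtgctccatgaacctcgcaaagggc
Clec4d promoter, chr6:123261857-123262106, plus strand: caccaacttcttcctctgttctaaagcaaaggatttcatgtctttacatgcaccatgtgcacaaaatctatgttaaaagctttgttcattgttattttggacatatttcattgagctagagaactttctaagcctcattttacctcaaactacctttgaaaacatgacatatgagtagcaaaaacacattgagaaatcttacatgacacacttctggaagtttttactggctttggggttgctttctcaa
Clec4e promoter, chr6:123289872-123290121, minus strand: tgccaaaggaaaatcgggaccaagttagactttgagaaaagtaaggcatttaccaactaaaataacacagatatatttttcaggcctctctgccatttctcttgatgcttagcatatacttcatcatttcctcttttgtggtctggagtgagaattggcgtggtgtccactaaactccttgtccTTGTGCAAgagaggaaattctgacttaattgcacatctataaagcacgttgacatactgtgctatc
Capitals mark matches to 3 motifs searched on both strands. The Clec7a promoter holds a STAT6-type match (TTC and GAA with 4 bases of any kind between them) that starts 131 bases before the start, and 5.85% of 32851 promoters hold such a match. That of Clec4e holds a C/EBP-type match (TTGCNNAA, on the opposite strand) that starts 66 bases before it, as do 9.56% of promoters. The Clec4d promoter holds none of these, nor a match to a PU.1-type motif (GAGGAAGT, 2.44% of promoters). Among the other members, Clec4a1 holds the STAT6-type letters. Clec4n had no entry.

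Other lectin receptor genes neighbour the members in the same clusters. None of the 10 (Clec4a4, Clec4b1, Clec4b2, Clec1a, Clec1b, Clec9a, Clec12a, Clec12b, Olr1 and Clec2d) passed 2-fold in any of the 6 comparisons, in which 5.43% to 8.83% of all genes did, so that a count of 0 among 10 is near the background. Several share loops with the members. In IFNG over M0[CTR], Clec4b2 was at -0.74 and Olr1 at 0.41. The list medians ran from -0.33 in M2[IL-4] over M0[CTR] to 0.26 in M2p[pIL-4] over M2[IL-4].

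Genes of the signalling pathway passed 2-fold at shares near those of all genes. Of 20 partners, none did in M2[IL-4] or M2p[pIL-4] over M0[CTR] or in M2p[pIL-4] over M2[IL-4] (8.74%, 6.03% and 6.59% of all genes). In IFNG over M0[CTR], where 8.83% of all genes passed, 1 was higher, Ptpn11, the gene of the phosphatase SHP2, with 23 loops against 10 (log2 ratio 1.08), and 1 was lower, Bcl10, the gene of the partner of Card9, with 1 loop against 6. Rel, the gene of the NF-kappaB subunit c-Rel, was lower in pIL-4 + IFNG, with 2 loops against 11 in M2p[pIL-4] and 8 in IFNG, the one call in each of these comparisons (5.84% and 5.43% of all genes). Syk had 73, 93, 86, 88 and 96 loops, and Card9 had 49, 54, 64, 56 and 61. The list medians lay between -0.02 and 0.07, beside -0.04 to 0.02 over all genes.

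The profiles of loop number over the 5 lists nearest to that of Clec4e, among genes more than 1 Mb away, were those of Ppp2ca (18, 11, 18, 9 and 10 loops), Fam83g (7, 4, 8, 3 and 4) and Gm12845 (5, 3, 5, 2 and 3). Their Euclidean distances on the log2 scale were 0.111 to 0.141, beside a median of 1.07 over all genes. Nearest to Clec7a were B3gnt2, Cdx2 and Slc28a2, at 0.0607 to 0.0677, beside a median of 0.632. With 5 lists, such likeness is a description of these numbers.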

How the data were processed

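Hi-C had been run on 10 samples of bone marrow-derived MFs, cut with MboI, and groups came from the sample titles. Reads went through nf-core/hic by the authors' methods, and the submitters' processing notes name FastQC, Bowtie2, HiC-Pro, Juicer, HOMER and mm10. The deposited files are 5 loop lists, 1 per group, with pairs of 10 kb bins and a whole-number count of contacts, apparently not normalized and with replicates apparently merged. The authors' methods describe HICCUPS calls at 25 kb, which these 10 kb lists do not match, so their caller and threshold are not given in the sources used here. Total reads behind each list were not used here. Loop numbers were scaled to list length, which is not a measure of depth. List lengths ran from 53424 to 67728, while contacts at bin pairs present in all 5 lists were 0.998 to 1.04 times those of M0[CTR].

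Loops were counted within 100 kb of each TSS. Loop number was compared as a log2 ratio scaled to list length with a pseudocount of 1. Its interval, by the exact binomial method, was scaled in the same way but used no pseudocount. Other intervals were exact Poisson (numbers), exact binomial (contact ratios) and Wilson (shares), all at 95%. They cover counting error only, since PCR copies and neighbouring bins are not independent. Called means past 2-fold for loop number and past 1.5-fold for contacts. Loops matched when both anchors lay within 25 kb. Strength was contacts over the median contacts of loops of the same span in the same list, pooled with neighbouring spans up to 50 loops. Named were the 7 members, genes under a described anchor, the 2 gene lists and the 3 genes most like Clec4e and Clec7a. The members and lists were chosen with earlier results of these data known. The counting was tested on simulated data. Alternatives were other windows, transcript starts, merging, scalings, pseudocounts, filters, matching distances and references. Scripts ran in Python 3.11.15 with scipy 1.17.1, pandas 2.3.3, numpy 2.4.6 and matplotlib 3.10.9.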

Additional observations from a re-analysis of the deposited data

How the results depend on the processing

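Of 876 alternative values of 124 results, 689 stayed within the counting interval of the value reported (for numbers, within 1.5 times). The other 187 moved beyond it. A change of direction was counted only for ratios past 2-fold. That was the ratio of Clec4e in IFNG over M0[CTR] alone, which kept its direction. Smaller ratios that turned, such as that of the cluster in M2[IL-4] over M0[CTR], were not counted as changes of direction. Narrower definitions lowered the loop numbers by construction. Lists are in the order M0[CTR], M2[IL-4], M2p[pIL-4], IFNG and pIL-4 + IFNG. With an anchor in the TSS bin, the cluster had 5, 7, 12, 1 and 6 loops and Clec7a 3, 1, 5, 3 and 6. With touching bin pairs merged, the cluster had 17, 21, 30, 15 and 21 and Clec7a 6, 4, 7, 8 and 11. With a window of 25 kb, Clec7a had 9, 6, 11, 10 and 12, and at equal list lengths it had 17 in M2p[pIL-4].

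With TSS bins alone, the log2 ratios of the cluster were 0.29 for M2[IL-4] over M0[CTR], 0.77 for M2p[pIL-4] over M0[CTR], -1.63 for IFNG over M0[CTR] and 1.52 for pIL-4 + IFNG over IFNG. Those of Clec7a were -1.13 for M2[IL-4] over M0[CTR] and 1.37 for M2p[pIL-4] over M2[IL-4]. These rest on 1 to 12 loops a list.

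In the order of comparisons M2[IL-4] over M0[CTR], M2p[pIL-4] over M0[CTR], M2p[pIL-4] over M2[IL-4], IFNG over M0[CTR], pIL-4 + IFNG over M2p[pIL-4] and over IFNG, genes past 2-fold numbered 2217, 1746, 1925, 2322, 1953 and 1781 with no filter on loop number. With at least 30 loops they numbered 534, 306, 318, 581, 343 and 242, against 1276, 880, 962, 1289, 852 and 793 as reported.

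Matching in the same bins lowered the share of cluster loops matched in M0[CTR] to 41.5% (M2[IL-4]), 39.3% (M2p[pIL-4]), 50% (IFNG) and 43.9% (pIL-4 + IFNG). At Clec7a it gave 55.6% (M2p[pIL-4]), 57.7% (IFNG) and 43.8% (pIL-4 + IFNG). Matching within 50 kb raised the cluster to 97.6% (M2[IL-4]), 93.4% (M2p[pIL-4]) and 97.6% (pIL-4 + IFNG) and Clec7a to 95.2% (M2[IL-4]). Taking the highest contacts within 25 kb, the Clec7a ratio of M2p[pIL-4] over M2[IL-4] was 0.839, against 0.988 as reported.

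The cause of these moves was not tested, apart from the narrower definitions. No paired analysis was possible because there was 1 list for each group, in which no replicate is named, and leaving out a replicate was not run for the same reason. The effect of depth was not tested.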
